A study of Kluyveromyces marxianus and Saccharomyces cerevisiae with 12 samples.

Results

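Of 5319 loci of the yeast Kluyveromyces marxianus, 60 (1.13%) had little RNA at 6 h of an alcoholic fermentation and at least 4 times as much at 36 h. They were chosen by the values themselves: a mean under 10 FPKM at 6 h, a mean of at least 20 FPKM at 36 h, and a ratio of at least 4 after 1 FPKM was added to both means. FPKM counts sequenced fragments per length of transcript and per total of mapped fragments. In all 62 loci met these bounds, and 2 of them were left out by name. Since the values at both times chose the members, every difference between the times in a member is a description and carries no test. A symbol was found for 38 members, 18 carry a locus tag alone in the RefSeq gene table of this species, and 4 are not in that table.

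The named members fall into a few kinds of work in the cell. Ribosome assembly takes place mostly in the nucleolus, where RNA polymerase I copies the ribosomal DNA and a large set of helicases, methylases and binding proteins fold and trim the transcript into subunits; RNA polymerase III makes the remaining small ribosomal RNA. DNA repair genes act when the template is broken or modified, some by letting replication pass a damaged base, others by recombination with an intact copy. Transporters and metabolic enzymes bring in iron, sugars, vitamins and sulfate and use them. In budding yeasts, ribosome assembly genes are known as a set that follows growth conditions, while several repair genes are known to be induced by DNA damage. The roles given below come from Saccharomyces cerevisiae unless another organism is named, and were not measured here.

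The study followed 2 wine yeasts, and the loci described here are those of K. marxianus strain IWBT Y855, sampled in 3 replicates at 36 h and 3 replicates at 6 h. Both groups are the same untreated strain in the same medium, grown at 25 °C with 10 mg/l of phytosterols, 230 g/l of sugars and nitrogen the cells can take up at 200 mg/l. Gene models carry the tags of another strain, that of RefSeq assembly Kmar_1.0, so a difference in sequence between the strains can lower a value. The other yeast, S. cerevisiae EC1118 at 20 h and 6 h, was not compared, because its tables name 0 loci by the symbol of a member. RNA came from whole cultures, so more RNA in every cell and RNA in a larger part of the cells cannot be told apart. The labels do not state whether replicates were separate cultures, and p-values given for other genes measure only the spread between these samples.

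Each sample came as 3 to 8 tables, which were averaged. In units of 1000000 fragments (M), the totals assigned to loci were 4.28 to 10.5 M at 36 h and 5.36 to 6.70 M at 6 h, as worked out from the FPKM bounds; the 5.36 M covers 3 of the 7 tables of 6 h replicate 2. Over all loci, Spearman's rho between replicates was 0.950 to 0.964 at 36 h. Replicates 2 and 3 at 6 h gave 0.987, but replicate 1 of that time stood apart, with values of 0.944 and 0.939 to the others. Of all 32 tables, 4 were shallow, with over 500 loci at 0, and 2 gave short loci values offset from the other tables of the sample by over 0.3 (log2). Of the 4929 loci with a mean of at least 1 FPKM, limma on log2(FPKM + 1) with Benjamini-Hochberg adjustment at 0.05 called 21.3% higher and 19.5% lower at 36 h. These shares are the background against which the genes that are not members are set below.

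The members reached ordinary levels at 36 h from low ones at 6 h. Their means at 36 h ran from 20.2 to 738 FPKM with a median of 43.3 FPKM, close to the 38.4 FPKM median of all loci at that time. At 6 h the means ran from 0 to 9.88 FPKM with a median of 6.23 FPKM, where the median of all loci was 37.7 FPKM. The log2 ratio of the means, with 1 FPKM added to each, ran from just above 2 up to 7.08 with a median of 2.77 over the members; it was 2.74 over the 58 members above 0 at 6 h. In 56 of 60 members the lowest 36 h sample lay above the highest 6 h sample, where 25.3% of all loci did so; the rule used these values, and nothing is read from that count. Low at 6 h did not mean silent: 55 members were above 0 in every 6 h sample, and 23 had a 6 h sample at 10 FPKM or more. The median member rested on 1522 fragments at 36 h and 153 at 6 h, summed over the tables with a known depth.

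**Figure D1:**
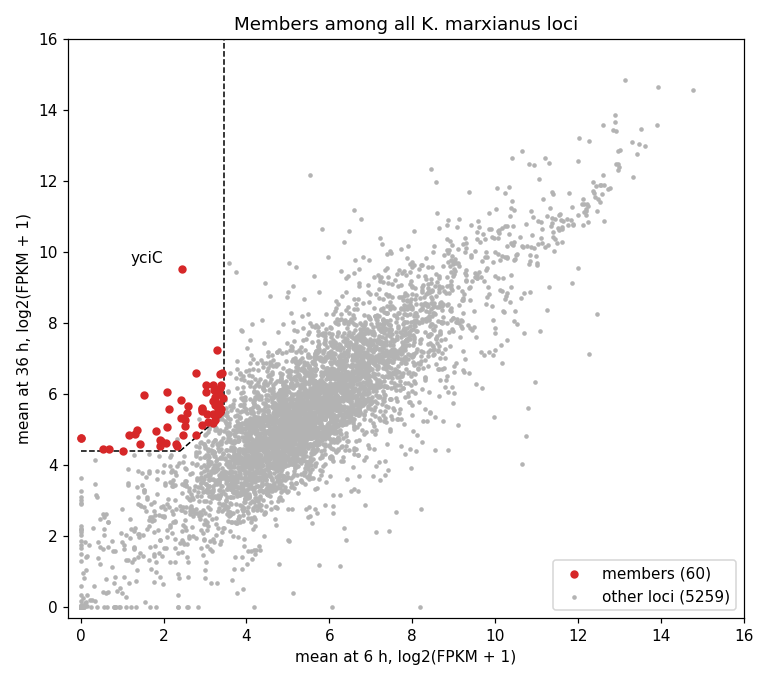
Mean log2(FPKM + 1) at 36 h (vertical axis) and at 6 h (horizontal axis) for every K. marxianus locus; red points are the 60 members, grey points the other 5259 loci, and dashed lines the bounds of the rule. The members lie above the main body of loci at the low end of the 6 h axis, and yciC, at 738 FPKM at 36 h, lies farthest above the bounds.

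The bounds cut through a continuous field of loci. Just inside the 6 h bound stood NOP6 at 9.88 FPKM, KLMA_60200 at 9.71 FPKM and KLMA_60045 at 9.49 FPKM, and just outside it BRR6 at 10.2 FPKM, THG1 at 10.4 FPKM and NUG1 at 10.7 FPKM, all at 6 h. At the 36 h bound, KLMA_20705 at 20.2 FPKM and KLMA_40484 and KLMA_20380 at 20.9 FPKM were inside, while PFS1 at 18.7 FPKM, MUM3 at 18.7 FPKM and DSS1 at 18.6 FPKM were outside. By the ratio, KLMA_40212 at 4.002, SIT1 at 4.04 and CMS1 at 4.18 were inside, and BFR2 at 3.98, KLMA_50327 at 3.90 and KLMA_80304 at 3.89 outside. Under 15 other ways of combining tables, scaling, summarising or leaving out samples with the bounds kept, 29 of the 60 stayed members in all 15.

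**Figure D2:**
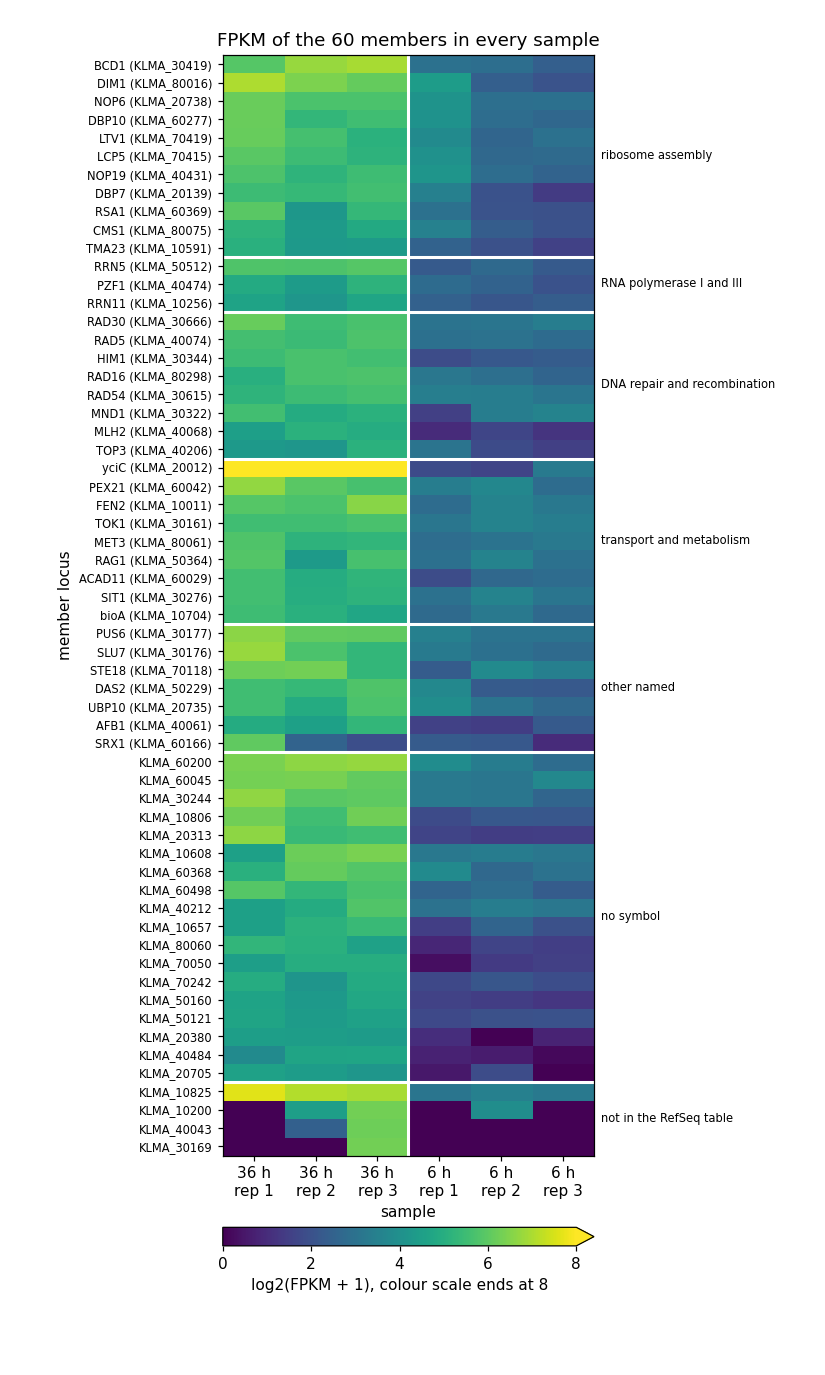
Log2(FPKM + 1) of each member (rows, grouped by role) in each sample (columns, 36 h left and 6 h right); colours run from dark at 0 to yellow at 8 and above. The 36 h columns are lighter in nearly every row, and the bottom rows, KLMA_10200, KLMA_40043 and KLMA_30169, are at 0 in at least 3 of the 6 samples.

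Transporters and metabolic enzymes held the member with the most RNA. The locus with the bacterial symbol yciC (KLMA_20012, at 35950 to 37560 on chromosome 2), a name used for putative metal chaperones, was at 923, 557 and 733 FPKM in 36 h replicates 1, 2 and 3, against 2.58, 2.12 and 8.74 FPKM in 6 h replicates 1, 2 and 3. Its lowest 36 h sample stood far above its highest 6 h sample, and its log2 ratio of 7.08 (7.79 without 6 h replicate 3) was the highest of any member. Only 1 other member reached a mean of 100 FPKM at 36 h. SIT1 (KLMA_30276), a siderophore iron transporter, was at 46.7, 30.4 and 35.1 FPKM at 36 h, against 6.91, 10.9 and 7.70 FPKM at 6 h, and met the ratio narrowly. Of the 49 loci of the metal uptake list, these 2 are members. Among the 44 others tested, limma called 26 higher (59.1%) and 3 lower, beside 21.3% higher and 19.5% lower over all loci. Their median log2 change was 1.13, beside -0.00 over all loci tested. The lower calls were 1 without 36 h replicate 2 or 6 h replicate 2. Most of the list stood too high at 6 h for the rule: the median of its other loci was 128 FPKM at 36 h and 48.1 FPKM at 6 h. HMX1, a heme oxygenase, averaged 2306 ± 666 FPKM at 36 h and 96.3 ± 10.0 FPKM at 6 h (SD, n = 3 each), a limma log2 change of 4.53 ± 0.30 (SE; adjusted p = 1.03e-05). The ARN2 locus KLMA_40087, a siderophore transporter, averaged 225 ± 92.4 FPKM at 36 h and 13.5 ± 6.15 FPKM at 6 h, a log2 change of 3.99 ± 0.40 (limma adjusted p = 7.21e-05). CCC1, which moves iron into the vacuole, was lower, with 11.8 ± 1.72 FPKM at 36 h and 31.3 ± 9.94 FPKM at 6 h (log2 change -1.30 ± 0.30, limma adjusted p = 0.00649). TAF1, a symbol used for a siderophore transporter and also for a general transcription factor subunit, was lower too, with 11.0 ± 3.69 FPKM at 36 h and 23.6 ± 3.91 FPKM at 6 h (limma adjusted p = 0.017), a call lost without 36 h replicate 2 (adjusted p = 0.0553) or 6 h replicate 2 (0.0775).

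The other transport members are named for carriers of a vitamin and a sugar and for a potassium channel. FEN2 (KLMA_10011, at 26431 to 27972 on chromosome 1), a pantothenate transporter, was at 58.7, 52.2 and 95.6 FPKM at 36 h, against 6.04, 10.8 and 8.20 FPKM at 6 h. Its symbol is carried by 2 more loci, which did not show that pattern: KLMA_10370 was at 49.8 to 63.1 FPKM at 36 h and 31.2 to 65.8 FPKM at 6 h, and KLMA_20826 at 10.0 to 23.7 FPKM at 36 h and 12.2 to 17.0 FPKM at 6 h. TOK1, an outward potassium channel, was the steadiest of the group, at 45.4, 45.3 and 51.1 FPKM at 36 h, against 7.89, 11.0 and 9.58 FPKM at 6 h. RAG1 (KLMA_50364), named for a low-affinity glucose transporter of Kluyveromyces lactis, was at 57.4, 19.5 and 50.0 FPKM at 36 h, against 6.68, 11.0 and 6.84 FPKM at 6 h. The neighbouring locus KLMA_50363 carries the same symbol and was at 2381 to 5863 FPKM at 36 h and 677 to 1578 FPKM at 6 h. How reads were split between the 2 copies is not given in the sources used here, and the member's level is uncertain.

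Among the enzymes, MET3 (KLMA_80061), the ATP sulfurylase that activates sulfate, was at 55.2, 34.9 and 37.4 FPKM at 36 h, against 6.23, 7.29 and 8.47 FPKM at 6 h. PEX21 (KLMA_60042), a carrier protein that helps bring enzymes into peroxisomes, was at 103, 60.7 and 49.5 FPKM at 36 h, against 9.40, 12.1 and 6.08 FPKM at 6 h. ACAD11, a symbol of an acyl-CoA dehydrogenase of mammals, was at 47.1, 30.1 and 36.3 FPKM at 36 h, against 2.64, 5.54 and 6.11 FPKM at 6 h. In all 3 the highest 36 h sample was replicate 1, and no sample of one time reached the other time. The bioA locus KLMA_10704, named for a bacterial enzyme of biotin synthesis, was at 44.6, 33.0 and 25.4 FPKM at 36 h, against 5.85, 8.36 and 5.69 FPKM at 6 h. The other bioA locus, KLMA_30015, was at 94.5, 48.0 and 57.3 FPKM at 36 h, against 11.4, 77.7 and 81.4 FPKM at 6 h, with times that overlapped.

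Ribosome assembly was the largest role among the members with a symbol, with 11 of 38. Their means ran from 23.6 to 96.1 FPKM at 36 h and from 3.18 to 9.88 FPKM at 6 h, with a median log2 ratio of 2.45. For the small subunit, DIM1 (KLMA_80016, at 63128 to 64114 on chromosome 8), which methylates its ribosomal RNA, was at 128, 84.4 and 68.0 FPKM at 36 h, against 20.2, 4.40 and 3.17 FPKM at 6 h. LTV1, needed for export of the small subunit, was at 69.4, 48.4 and 33.5 FPKM at 36 h, against 13.1, 5.13 and 6.95 FPKM at 6 h. NOP6, LCP5, NOP19 and CMS1, which bind the early small-subunit particle, had log2 ratios of 2.45, 2.27, 2.14 and 2.06. For the large subunit, the RNA helicase genes DBP10 and DBP7 had means of 51.9 and 43.7 FPKM at 36 h, against 9.13 and 4.96 FPKM at 6 h. DBP7 was at 44.0, 39.7 and 47.3 FPKM at 36 h, against 10.2, 3.08 and 1.62 FPKM at 6 h, with 6 h replicate 1 the highest of its group in this gene as in DIM1 and LTV1. RSA1, an assembly factor of the large subunit, was at 60.5, 17.9 and 39.1 FPKM at 36 h, against 6.88, 3.11 and 2.99 FPKM at 6 h, and its 36 h coefficient of variation of 54.3% was the highest of the 11. TMA23, a nucleolar protein, had the lowest level of the 11, at 32.5, 19.0 and 19.4 FPKM at 36 h, against 4.67, 2.93 and 1.94 FPKM at 6 h. BCD1 (KLMA_30419, at 933754 to 934947 on chromosome 3), needed for the box C/D small nucleolar RNAs that guide ribosomal RNA methylation, had the largest ratio of the 11. It was at 58.4, 108 and 122 FPKM at 36 h, against 6.93, 6.39 and 4.41 FPKM at 6 h, and its lowest 36 h sample was replicate 1, where 9 of the 11 had their highest.

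Most loci of the ribosome biogenesis list that are not members were also higher at 36 h. Of the 165 loci of that list, 9 are members. Of the 156 others, all tested, limma called 121 higher and 0 lower, with a median log2 change of 1.53; 0 were lower at an unadjusted p under 0.05. The share called higher, 77.6%, stands beside the 21.3% of all loci. With single samples left out, the higher calls ran from 83 (without 36 h replicate 1) to 134 (without 6 h replicate 1), and the lower calls stayed at 0. DBP2, an RNA helicase, averaged 464 ± 101 FPKM at 36 h and 53.2 ± 40.3 FPKM at 6 h, a log2 change of 3.33 ± 0.45 (limma adjusted p = 0.000436). SLX9, of small-subunit assembly, averaged 120.4 ± 87.6 FPKM at 36 h and 12.7 ± 6.28 FPKM at 6 h, a log2 change of 3.02 ± 0.47 (limma adjusted p = 0.00085). Of the list's 25 loci under 10 FPKM at 6 h, 9 (36.0%) are members, where 6.48% of all loci under that bound are. The rule used these values and the list was chosen with earlier results known, so nothing is read from that share.

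RNA polymerase I and III genes added 3 members. RRN5 (KLMA_50512, at 1104152 to 1105768 on chromosome 5), part of the upstream activating factor of RNA polymerase I, was at 55.2, 53.4 and 58.6 FPKM at 36 h, against 3.77, 5.61 and 3.80 FPKM at 6 h; its 36 h coefficient of variation of 4.78% was among the 3 lowest of the members. RRN11, part of the core factor of the same polymerase, was at 23.8, 17.6 and 24.9 FPKM at 36 h, against 4.57, 3.44 and 4.09 FPKM at 6 h. PZF1, the factor that starts the small ribosomal RNA made by RNA polymerase III, was at 28.4, 20.1 and 34.9 FPKM at 36 h, against 5.88, 4.77 and 3.01 FPKM at 6 h. None of the 3 had a 6 h sample near its 36 h range. In the list of 35 loci for these polymerases, RRN5 and RRN11 are members. Limma called 12 of the 33 others higher (36.4%) and 3 lower (5 with upper quartile scaling), with a median log2 change of 0.78. Over all loci, 21.3% were called higher and 19.5% lower. RPC40, a subunit shared by both polymerases, had a log2 change of 2.52 ± 0.43 (limma adjusted p = 0.00148) and RPC37, a subunit of polymerase III, one of 2.23 ± 0.32 (limma adjusted p = 0.00056). TFC1 and TFC8, subunits of the factor that recruits polymerase III, had log2 changes of -1.41 ± 0.30 (limma adjusted p = 0.00462) and -1.39 ± 0.31 (limma adjusted p = 0.00552).

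The 6 h replicate that stood apart did so in the ribosome assembly members and not in every role. It was the highest 6 h sample in 11 of 11 of them, by a median of 1.31 above the mean log2 value of the other two, where it was the highest in 36.7% of all loci. Over the ribosome biogenesis list the same median was 1.30. In the transport and metabolism members it was the highest in 0 of 9, with a median of -0.34, and in the DNA repair members in 3 of 8, with a median of -0.07. At 36 h, replicate 1 was the highest sample in 9 of 11 ribosome assembly members and 7 of 9 transport and metabolism members, but in 2 of 8 DNA repair members and 0 of 3 RNA polymerase members, where it was so in 52.5% of all loci. Without 6 h replicate 1 the rule took 112 loci in place of 60, among them 54 of the 60. Leaving that sample out moved the log2 ratio by the most in DIM1 (4.31, against 3.20 with all samples) and DBP7 (3.74 against 2.90), and less in NOP19 (2.80 against 2.14), DAS2 (3.31 against 2.65) and TOP3 (2.90 against 2.28). Of the 58 loci the rule then added, 39 are on the ribosome biogenesis list, including BFR2, NUG1 and SLX9, and 0 are on the DNA repair list. Those lists hold 165 and 57 of all 5319 loci. The sample left out is the one in which the ribosome biogenesis list ran high, which lowers the 6 h means of that list. Nothing is therefore read from these counts.

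**Figure D3:**
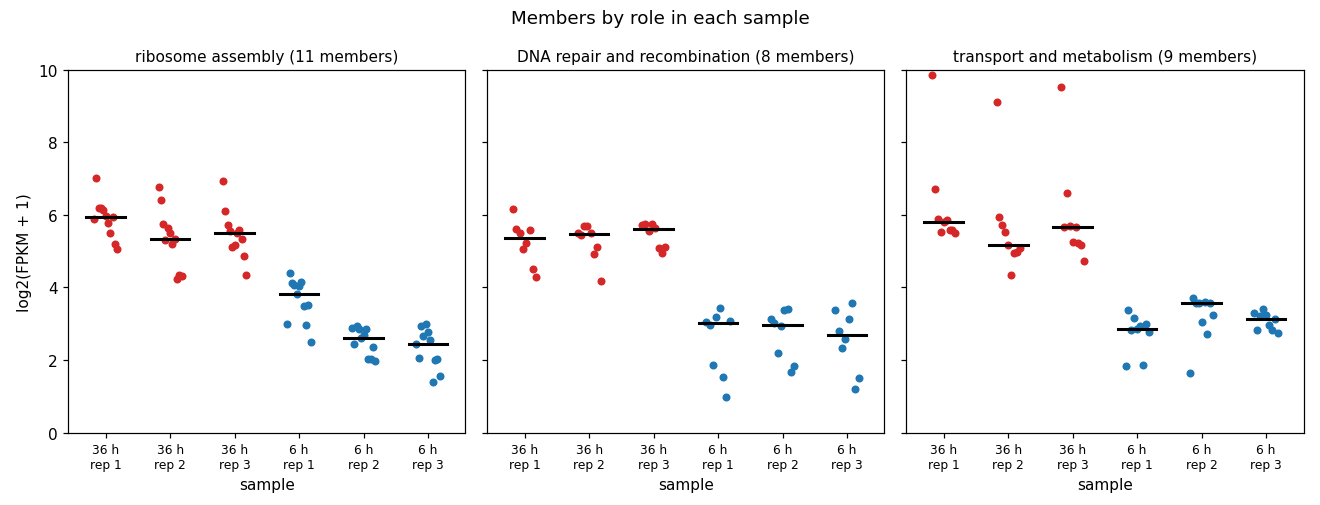
Log2(FPKM + 1) of the members in 3 roles, by sample; each point is 1 member, red at 36 h and blue at 6 h, and black bars are medians. In ribosome assembly the 6 h replicate 1 median of 13.1 FPKM stands above the 5.13 and 4.41 FPKM of replicates 2 and 3, while in the other 2 roles it does not stand apart in this way.

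DNA repair and recombination gave 8 members, in which 6 h replicate 1 did not lie to the same side throughout. Against the mean log2 value of the other 6 h samples it ran from -1.96 in MND1 to 1.39 in TOP3. Their means ran from 23.0 to 55.4 FPKM at 36 h and from 1.48 to 8.93 FPKM at 6 h, with a median log2 ratio of 2.62. Damage tolerance, by which replication passes a damaged base, was represented by RAD30 and RAD5. RAD30 (KLMA_30666, at 1426707 to 1428608 on chromosome 3), the translesion DNA polymerase eta, was at 70.2, 44.6 and 51.3 FPKM at 36 h, against 7.31, 7.72 and 9.38 FPKM at 6 h. RAD5 (KLMA_40074, at 151590 to 154985 on chromosome 4), a helicase and ubiquitin ligase of the error-free branch, was at 47.9, 42.8 and 53.3 FPKM at 36 h, against 6.81, 7.08 and 5.99 FPKM at 6 h. In both genes every 36 h sample was several times every 6 h sample, and neither time had a stray replicate. RAD16, which recognises damage in silent DNA for nucleotide excision repair, was at 32.2, 50.8 and 53.0 FPKM at 36 h, against 8.03, 6.62 and 5.02 FPKM at 6 h.

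Recombination and mismatch repair members showed wider differences in their 6 h levels. MLH2 (KLMA_40068), a mismatch repair protein that also acts in meiosis, was near the floor at 6 h: it had 22.0, 33.5 and 30.2 FPKM at 36 h, against 0.988, 2.17 and 1.28 FPKM at 6 h. RAD54, a motor protein of homologous recombination, was at 36.1, 43.8 and 49.1 FPKM at 36 h, against 9.70, 9.42 and 7.68 FPKM at 6 h. TOP3, the topoisomerase that unlinks recombining DNA, was at 18.5, 17.2 and 33.4 FPKM at 36 h, against 7.38, 2.58 and 1.85 FPKM at 6 h. In TOP3 both the highest 36 h sample, replicate 3, and the highest 6 h sample, replicate 1, lay apart from the rest of their group. MND1, of meiotic strand exchange, was at 46.7, 29.5 and 33.2 FPKM at 36 h, against 1.86, 9.50 and 10.9 FPKM at 6 h, with 6 h replicate 1 the lowest. HIM1 (KLMA_30344), named for a role in mutagenesis and repair, was at 44.1, 50.9 and 46.3 FPKM at 36 h, against 2.66, 3.60 and 3.99 FPKM at 6 h, and was the steadiest of the 8 at 36 h.

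The rest of the DNA repair list did not share this direction as a set. Of the list's 57 loci, 6 are members, and of the 51 others limma called 10 higher (19.6%) and 6 lower, with a median log2 change of -0.03. The share called higher was near the 21.3% of all loci, and the share called lower was below the 19.5% of all loci. The 6 members, which the rule chose for their rise, are not in these figures. Of lower calls there were 0, in place of 6, without 36 h replicate 2 or 6 h replicate 2. Members were 6 (28.6%) of the list's 21 loci under 10 FPKM at 6 h, beside 6.48% of all loci under that bound. The rule used these values, and nothing is read from that share. REV1, which inserts bases opposite damage, averaged 108 ± 23.8 FPKM at 36 h and 20.1 ± 3.08 FPKM at 6 h, a log2 change of 2.36 ± 0.26 (limma adjusted p = 0.000135). RMI1 averaged 89.7 ± 7.60 FPKM at 36 h and 27.6 ± 1.67 FPKM at 6 h, a log2 change of 1.66 ± 0.23 (limma adjusted p = 0.000495). RAD14, which binds damage in nucleotide excision repair, was lower, at 44.5, 26.8 and 38.4 FPKM at 36 h, against 47.7, 232 and 194 FPKM at 6 h (log2 change -1.82 ± 0.52, limma adjusted p = 0.0179). That call was lost without 36 h replicate 2 (adjusted p = 0.0604), 6 h replicate 2 (0.0601) or 6 h replicate 3 (0.0563). MSH3, of mismatch recognition, averaged 5.24 ± 1.11 FPKM at 36 h and 11.8 ± 3.25 FPKM at 6 h (log2 change -1.01 ± 0.32, limma adjusted p = 0.0292), and its call was lost without 36 h replicate 1 or 2 or 6 h replicate 1 or 2, with an adjusted p of up to 0.109, and with a replicate block (0.0549).

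**Figure D4:**
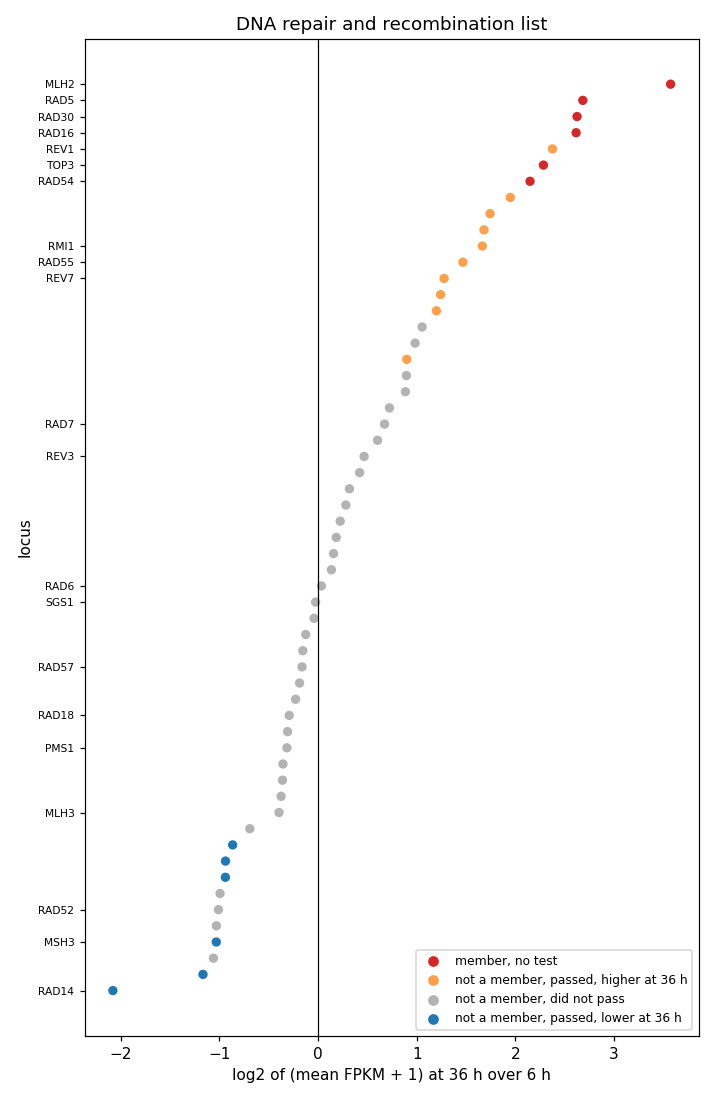
Log2 of the ratio of mean FPKM + 1, 36 h over 6 h, for the 57 loci of the DNA repair and recombination list, with the members and the other loci described in the text named; red points are the 6 members, orange and blue points are other loci that limma called higher or lower, and grey points did not pass. Members and REV1 hold the top of the order, and most of the list lies on both sides of 0.

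Members were set beside the genes they are known to work with in S. cerevisiae, a set of 33 partner loci of 13 members listed from textbook complexes and pathways with the members known; 2 more partner symbols were carried by no locus. Limma called 8 of the 33 higher (24.2%, beside 21.3% of all loci) and 3 lower (19.5% of all loci were), and 22 did not pass. The partners' median log2 change was 0.06. Of the 33, 27 were at 10 FPKM or more at 6 h, too high for the rule. In damage tolerance, RAD30 stood with REV1 and with REV7, which averaged 109 ± 22.8 FPKM at 36 h and 44.3 ± 16.6 FPKM at 6 h (log2 change 1.32 ± 0.32, limma adjusted p = 0.00913). REV3, the catalytic partner of REV7 in polymerase zeta, averaged 5.86 ± 1.04 FPKM at 36 h and 3.97 ± 1.22 FPKM at 6 h and did not pass (limma adjusted p = 0.281). The RAD5 partners RAD6, RAD18, UBC13 and MMS2, which attach ubiquitin to the replication clamp, did not pass either, with log2 changes of -0.04, -0.29, -0.37 and -0.69. MMS2 had a limma adjusted p of 0.0718, and passed as lower in 4 of the alternatives, namely without 36 h replicate 1 (0.0485) or 6 h replicate 1 (0.0324) and with upper quartile (0.0226) or TPM scaling (0.0488).

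Partners in recombination and mismatch repair were set out in the same way. For TOP3, its binding partner RMI1 was called higher as given above, while the helicase SGS1 of the same complex averaged 5.17 ± 0.737 FPKM at 36 h and 5.28 ± 0.592 FPKM at 6 h (limma adjusted p = 0.951). Around RAD54, RAD55 averaged 138 ± 25.9 FPKM at 36 h and 49.1 ± 12.7 FPKM at 6 h (log2 change 1.48 ± 0.28, limma adjusted p = 0.00256). RAD57, which forms a pair with RAD55, had a log2 change of -0.17 and did not pass (limma adjusted p = 0.642). RAD52, of strand annealing and exchange, had a log2 change of -0.96 and did not pass (limma adjusted p = 0.0509), but passed as lower in 6 alternatives: without 6 h replicate 3 (0.0239), with upper quartile scaling (0.0287), TPM scaling (0.0489) or a pseudocount of 5 (0.0491), without the offset tables (0.0420) and without the shallow and offset tables (0.0468). PMS1 and MLH3, of mismatch repair like MLH2, had log2 changes of -0.32 and -0.41, and neither passed (limma adjusted p = 0.371 and 0.319). RAD7, which works with RAD16, had a log2 change of 0.66 (limma adjusted p = 0.0853). For MND1, HOP2 averaged 2.57 ± 1.36 FPKM at 36 h and 1.00 ± 0.550 FPKM at 6 h, and DMC1 23.9 ± 5.47 FPKM at 36 h and 22.1 ± 9.89 FPKM at 6 h, and neither passed (limma adjusted p = 0.223 and 0.697). Whether a member and a partner that did not pass differ in their change was not tested.

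Other partners act in ribosomal DNA transcription, small nucleolar RNA assembly and sulfate use. RRN9 and RRN10, subunits of the same factor as RRN5, averaged 11.0 ± 1.92 and 21.0 ± 6.64 FPKM at 36 h, against 10.3 ± 0.801 and 19.5 ± 4.26 FPKM at 6 h, and did not pass (limma adjusted p = 0.839 and 0.884). RRN6, of the core factor with RRN11, had a log2 change of 1.36 ± 0.36 (limma adjusted p = 0.0125; 0.0510 without 36 h replicate 3), and RRN7 one of 0.41 (limma adjusted p = 0.362). Of the box C/D particle that BCD1 serves, SNU13 had a log2 change of 2.46 ± 0.48 (limma adjusted p = 0.00314), NOP56 one of 1.09 ± 0.39 (limma adjusted p = 0.0455) and NOP58 one of 0.64 (limma adjusted p = 0.134). The NOP56 call was lost without 36 h replicate 1 or 3 or 6 h replicate 2 or 3, with an adjusted p of up to 0.162, and with no intensity trend (0.0509). The sulfate pathway after MET3, through MET14, MET16, MET5 and MET10, had log2 changes of -0.23, 0.50, -0.73 and -0.13, and none passed (limma adjusted p from 0.0584 to 0.775), though MET5 passed as lower without 36 h replicate 3 (0.0398), without 6 h replicate 1 (0.0473), with upper quartile scaling (0.0378) and without the shallow and offset tables (0.0481). PEX7, the receptor that PEX21 assists, averaged 22.2 ± 3.74 FPKM at 36 h and 28.6 ± 3.95 FPKM at 6 h (limma adjusted p = 0.281).

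**Figure D5:**
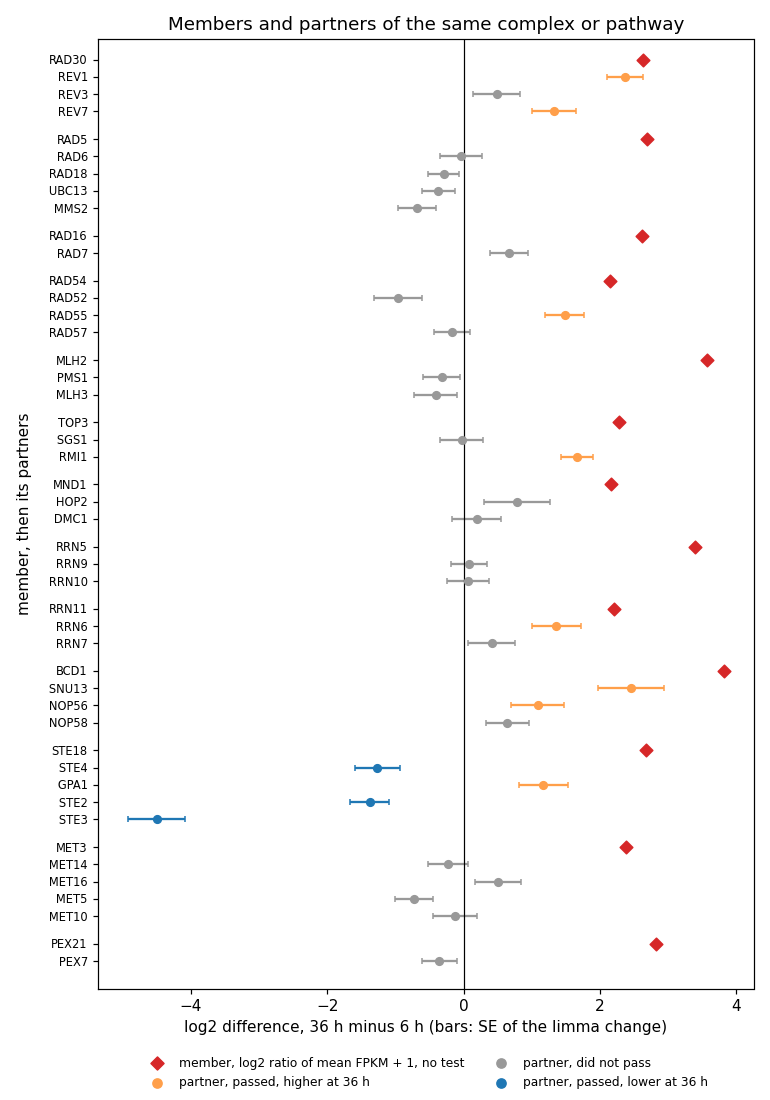
Log2 difference, 36 h minus 6 h, for 13 members (red diamonds, ratio of mean FPKM + 1, not tested) and their 33 partner loci (circles, limma log2 change with its SE); orange and blue circles passed as higher or lower and grey circles did not pass. Every diamond lies to the right of 2, as the rule's ratio of at least 4 requires. Most of the circles below lie nearer to 0, with STE3 at -4.50. The members were chosen by the plotted ratio, so nothing is read from the gap between diamonds and circles.

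STE18 and AFB1 are the members with a known role in mating. STE18 (KLMA_70118, at 238513 to 238785 on chromosome 7), the gamma subunit of the pheromone G protein, was at 73.6, 76.9 and 38.4 FPKM at 36 h, against 3.98, 13.1 and 10.1 FPKM at 6 h. It is a short locus resting on 170 fragments at 36 h and 20 at 6 h. STE4, the beta subunit that binds it, averaged 9.80 ± 4.05 FPKM at 36 h and 24.2 ± 5.96 FPKM at 6 h, a log2 change of -1.26 ± 0.34 (limma adjusted p = 0.0132). The alpha subunit gene GPA1 averaged 5.59 ± 0.514 FPKM at 36 h and 1.97 ± 0.601 FPKM at 6 h, a log2 change of 1.17 ± 0.36 (limma adjusted p = 0.0249). That call was lost without 36 h replicate 2 or 3 or 6 h replicate 1 or 2, with an adjusted p of up to 0.077, and with a replicate block (0.0576). The pheromone receptor genes STE2 and STE3 were lower, with log2 changes of -1.38 ± 0.29 (limma adjusted p = 0.00446) and -4.50 ± 0.42 (limma adjusted p = 4.88e-05). STE3 had 1.76, 1.51 and 0.517 FPKM at 36 h, against 25.4, 64.6 and 68.6 FPKM at 6 h. AFB1 (KLMA_40061), a cell wall protein that blocks the pheromone a-factor, was at 29.6, 22.3 and 38.4 FPKM at 36 h, against 1.92, 1.72 and 3.86 FPKM at 6 h. In the mating list as a whole, limma called 9 of the 43 loci tested that are not members higher and 9 lower (20.9% each), near the 21.3% and 19.5% of all loci, with a median log2 change of -0.02.

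The remaining members with a symbol act on RNA and protein. PUS6 (KLMA_30177, at 394891 to 396012 on chromosome 3), a tRNA pseudouridine synthase, was at 96.3, 66.3 and 65.0 FPKM at 36 h, against 10.2, 7.18 and 7.23 FPKM at 6 h. SLU7 (KLMA_30176), a splicing factor, was at 107, 52.8 and 37.9 FPKM at 36 h, against 8.87, 6.71 and 5.76 FPKM at 6 h. The 2 genes are neighbours, 254 nt apart, and both were highest in replicate 1 at each time. UBP10, a ubiquitin protease that acts on histones and in silencing, was at 45.7, 29.4 and 52.2 FPKM at 36 h, against 14.0, 7.41 and 5.45 FPKM at 6 h. DAS2, a putative uridine kinase, was at 45.3, 40.2 and 54.4 FPKM at 36 h, against 12.2, 3.92 and 3.68 FPKM at 6 h. In both, 6 h replicate 1 lay above the other 6 h samples. SRX1, the sulfiredoxin that repairs oxidised peroxiredoxins, was a member through 1 sample: it was at 65.6, 4.86 and 2.82 FPKM at 36 h, against 3.96, 3.58 and 0.992 FPKM at 6 h, its times overlapped, and without 36 h replicate 1 its log2 ratio was 0.33.

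The 18 members known only by a tag had a higher median log2 ratio, 3.17, than the members in any of the named roles, and their times did not overlap. The times did not overlap in 56 of all 60 members, with 36 h above 6 h, and in that direction in 25.3% of all loci. Since the rule used these values, nothing is read from the ranking or the gap. The 18 include the lowest 6 h values among the members read in most tables. KLMA_20313 (at 669436 to 670500 on chromosome 2) was at 99.2, 42.0 and 46.0 FPKM at 36 h, against 2.10, 1.75 and 1.80 FPKM at 6 h. KLMA_10806 was at 75.9, 46.0 and 75.5 FPKM at 36 h, against 2.53, 3.60 and 3.55 FPKM at 6 h. KLMA_40484 was at 13.2, 24.6 and 24.8 FPKM at 36 h, against 0.689, 0.540 and 0.138 FPKM at 6 h, on 487 fragments at 36 h and 8 at 6 h. KLMA_60200, KLMA_60045 and KLMA_30244 were the highest of the 18 at 36 h, with means of 95.4, 75.4 and 75.4 FPKM, against 9.71, 9.49 and 7.14 FPKM at 6 h. KLMA_20380 was the steadiest of all members at 36 h, at 21.6, 20.9 and 20.1 FPKM, against 1.08, 0 and 0.752 FPKM at 6 h. Its fragments were few, 61 at 36 h and 2 at 6 h, so its ratio is known only roughly. KLMA_20705 was at 22.7, 20.6 and 17.4 FPKM at 36 h, against 0.424, 2.66 and 0 FPKM at 6 h, with a log2 ratio of 3.39 (4.13 without 6 h replicate 2). A symbol was found for 63.3% of the members and 81.8% of all loci. The rule admits only the 926 loci under 10 FPKM at 6 h, whose share with a symbol is not given here. Nothing is therefore read from that difference.

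The 4 members absent from the RefSeq table differ among themselves. KLMA_10825 (at 1713727 to 1714197 on chromosome 1) was at 198, 135 and 122 FPKM at 36 h, against 7.63, 10.2 and 8.50 FPKM at 6 h, with a clear gap between the times. The other 3 lie across other loci, and their values come from few tables. KLMA_30169 overlaps ARG3 over its whole 228 nt and was above 0 in 1 of the 32 tables, a table of 36 h replicate 3 with the short-locus offset, on 14 fragments. KLMA_10200 overlaps NOP1 over 423 nt and was above 0 in 4 tables, all shallow or offset, of 36 h replicates 2 and 3 and 6 h replicate 2. The log2 ratio of KLMA_10200, 2.57, was 1.02 without 36 h replicate 3 and 5.10 without 6 h replicate 2. KLMA_40043 shares 155 nt with ECT1 and was above 0 in all 5 tables of 36 h replicate 3 and 1 table of replicate 2, with 73.8 and 4.50 FPKM in those samples and 0 in the rest. KLMA_30169 and KLMA_40043 are listed at 0 in every 6 h sample, so no fold is given. Whether counting used strand is not given in the sources used here, and reads of overlapping loci cannot be told apart. With these 3 and SRX1 set aside, the 56 members whose times did not overlap had a median log2 ratio of 2.77.

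The members were spread over the genome. They lie on all 8 chromosomes, with 5 to 11 on each, and 2 of 60 (3.33%) are within 30 kb of a chromosome end, where 3.48% of the nuclear loci are. Their median length was 1162.5 nt, and that of all loci 1194 nt. Besides SLU7 and PUS6, the neighbouring pairs of members were KLMA_60368 with RSA1, 21 nt apart, and KLMA_80060 with MET3, 1274 nt apart. KLMA_80060 was at 37.8, 32.7 and 22.7 FPKM at 36 h, against 0.797, 2.09 and 1.82 FPKM at 6 h, a larger ratio than MET3. Of the 114 loci next to a member that are not members themselves, 106 were tested; limma called 44 higher (41.5%) and 12 lower (11.3%), beside 21.3% and 19.5% of all loci, with a median log2 change of 0.66. The genome sequence of this species was not used here, so no sequence of a member is shown.

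Of 26 gene lists, 12 had at least 1 member and 14 had 0. Members are 1.13% of all loci and 6.48% of those under 10 FPKM at 6 h, shares at which a list of this size can hold none, so nothing is read from these zeros. Among the lists with 0 members, 15 of 62 loci for nitrogen compound uptake, 9 of 45 for the cell wall and surface, and 8 of 37 for glyoxylate, gluconeogenesis and acetate use were under 10 FPKM at 6 h. Few loci could meet the bound in the lists for heat shock, with 2 of 28, and for trehalose, glycogen and stationary phase, with 1 of 39, whose median loci were at 107 and 160 FPKM at 6 h. In the meiosis list 30 of 60 loci were under 10 FPKM at 6 h, and MND1 was its 1 member (3.33% of the 30, beside 6.48%).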

How the data were processed

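Total RNA (acid phenol extraction) went into TruSeq V2 libraries, per the labels' protocols. The authors deposited FPKM tables in the layout of Cufflinks gene tracking, per the file headers. The submitters' processing notes list, with no roles, Cuffdiff (version 2.2.1.5), Cufflinks (version 2.2.1.2), TopHat2 (version 2.0.8), and FastQC (version 0.10.1) beside Trim Galore (version 0.4.3.1); the genome build is not given in the sources used here. What sets the tables of a sample apart is not stated, so they were averaged to 1 value per locus and sample (n = 3 per time). The 36 values marked LOWDATA or FAIL were treated as missing; 0 of them belong to members. Fragments were recovered from the upper bounds of the deposited FPKM in 28 of 32 tables, where a median of 95.1% of the values below 5.5 fragments came out whole within 0.02; in the other 4 tables the depth is unknown. FPKM does not correct for differences in RNA composition, and the log2(FPKM + 1) scale understates changes of low loci.

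Loci with a mean of at least 1 FPKM entered limma (version 3.58.1, under R 4.3.3) as log2(FPKM + 1), 36 h minus 6 h, with an intensity trend and Benjamini-Hochberg adjustment at 0.05. The fit was also run on simulated data with independent noise in each locus. Those data hold no shift shared by many loci of 1 replicate, such as that of 6 h replicate 1, so they do not cover that case. Symbols came from the RefSeq table of assembly Kmar_1.0, which matched 5095 of 5319 loci, 96.2% of them with identical coordinates; positions are those of the deposited tables. Members, roles, partners and the 26 gene lists were chosen with earlier results of these data known. Members named by rule were the 12 highest at 36 h, up to 3 per list by ratio, those at 0 at 6 h, the 3 most and 3 least variable at 36 h, neighbouring pairs, and those at the bounds; other genes named by rule were up to 2 called in each direction in lists with at least 2 members. Further members, the partner genes, and the loci sharing a symbol or position with a member were named after their values were seen. A planned search of promoters for motifs and a planned comparison with S. cerevisiae EC1118 were not run, since no K. marxianus promoter was at hand and EC1118 loci carry tags in place of member symbols. Replicate numbers did not pair the samples. In the DNA repair list and among the partners, 2 genes are not reported here.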

Additional observations from a re-analysis of the deposited data

How the results depend on the processing

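Moving the bounds changed the number of members, 60, to 27 (a 6 h ceiling of 5 FPKM), 34 (a 36 h floor of 40 FPKM) or 23 (a ratio of 8), and group medians gave 92. With single samples left out it ran from 50 to 112, the highest without 6 h replicate 1. The median log2 ratio of the 60 was 2.97 with a pseudocount of 0.1 and 2.19 with 5. Leaving out samples gave 594 to 1023 lower calls over all loci (960 with all samples; 594 without 6 h replicate 2) and 0 to 5 lower calls in the DNA repair list in place of 6. Without 36 h replicate 2 the median log2 change of all loci shifted to 0.11. Replicate numbers did not pair the samples, since deviations of same-numbered samples correlated at 0.04, -0.07 and -0.23; a replicate block gave 984 higher and 882 lower calls, and 3 lower calls in the DNA repair list. Signs turned in partners that did not pass: RAD6 with medians over tables (0.041), SGS1 with TPM scaling (0.0024), without the shallow tables (0.021) and without the shallow and offset tables (0.023), and RRN10 with upper quartile scaling (-0.0070), without the offset tables (-0.027) and without both (-0.0068). Left-out samples put RAD6 between -0.35 and 0.18, SGS1 between -0.11 and 0.073, DMC1 between -0.22 and 0.46, RRN9 between -0.050 and 0.14, RRN10 between -0.078 and 0.35, and MET10 between -0.46 and 0.063. The settings without shallow tables were chosen after seeing the data. No alternatives for S. cerevisiae were run. Members at 6 h rest on few fragments, a median of 153, which limits their ratios.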

Other observations

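Without 6 h replicate 1, the loci that newly met the bounds included UTP5, UTP7, UTP10, UTP13, UTP14, UTP20, UTP23 and UTP25 of the small-subunit processome, the helicase genes DBP8, DBP9, HCA4 and MAK5, and NOP2, NOP9, NOP13 and NOP14. Of the 58 such loci, 39 are on the ribosome biogenesis list and 2 (PUS4 and THG1) on the tRNA modification list. On the mating, meiosis, metal uptake and RNA polymerase lists there were 0. Those lists hold 47, 60, 49 and 35 of all 5319 loci. At such shares a set of 58 loci can hold none of a list, so nothing is read from these zeros. The ribosome biogenesis list ran high in the sample left out, so nothing is read from its count either. The 58 loci are not members, and those given here were named after their values were seen.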
